A study of Ovis aries and Bos taurus with 15 samples.

Results

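The long-chain acyl-CoA synthetases are the enzymes that join coenzyme A to a long-chain fatty acid, at the cost of ATP, before the acid can be burned or built into lipids. ACSL1, ACSL3, ACSL4 and ACSL5 were looked for by symbol, taking every probe set whose platform annotation gives exactly 1 gene symbol that is one of these 4. The search found 5 probe sets, of 24016 tested, for 3 of the 4 genes, of 9155 named. ACSL1 and ACSL5 had 1 probe set each, ACSL3 had 3, and ACSL4, which prefers polyunsaturated acids such as arachidonic acid, had 0 named probe sets and is not analysed here.

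RNA was profiled on 15 Affymetrix bovine arrays in 3 groups of 5. The first was ovine cells labelled PAEC given GW9662 at 5 µM for 24 h, the second bovine cells labelled BAEC, named only as controls, and the third ovine PAEC given the DMSO vehicle for 24 h. GW9662 is an irreversible antagonist of PPARγ, and all groups were grown in DMEM with 10% FBS. The labels give no genotype, breed or donor and do not say whether replicates were separate cultures, so p-values measure the spread between these samples, which may be technical.

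As background, a fatty acid that enters a cell is trapped as its acyl-CoA, and the synthetase that makes the ester, with its place in the cell, bears on whether the chain goes to oxidation in mitochondria or to glycerolipids and membranes. ACSL1 is the major synthetase of adipose tissue, heart and liver in rodents and a textbook PPAR target gene. ACSL3 sits on the endoplasmic reticulum and on lipid droplets, where it feeds droplet growth in human cells, and ACSL5 is found on mitochondria and the endoplasmic reticulum and is abundant in intestine. Endothelial cells take up fatty acids from plasma both for their own use and to pass them on to the tissue.

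Values are log2 expression values, so a difference of 1 is a 2-fold difference. Array medians lay between 3.18 and 3.27, and the values of the 5 probe sets ran from 5.96 to 9.41, above them on every array. Of 12 endothelial markers 10 were measured. PECAM1, CDH5, TEK, TIE1 and ERG had group means between 9.13 and 11.7, whereas KDR was at 3.79 with GW9662, 3.08 in bovine cells and 2.64 with vehicle, VWF was under 3 in all groups and CLDN5 was under 3 in both ovine groups. All 5 epithelial and all 3 measured adipocyte markers had means under 3 in every group, as did 4 of 6 smooth muscle and 4 of 6 fibroblast markers, and of 6 leukocyte markers only CD14 in ovine cells was above 3. The summed signal of the 6 smooth muscle markers, on the log2 scale, lay between 7.36 and 7.70 with GW9662, between 9.03 and 9.30 in bovine cells and between 7.39 and 7.74 with vehicle. That of the 6 fibroblast markers lay between 10.3 and 10.7 with GW9662, between 11.2 and 11.3 in bovine cells and between 10.2 and 10.5 with vehicle. Each of these sums is largely that of its brightest gene. TAGLN of smooth muscle was at 7.16 with GW9662, 9.00 in bovine cells and 7.18 with vehicle, and SMTN at 4.29, 5.19 and 3.91. In the same order the fibroblast marker COL1A2 was at 10.4, 11.2 and 10.3, and THY1 at 4.92, 4.38 and 4.41. The 6 leukocyte markers summed to between 6.98 and 7.22 with GW9662, to between 5.00 and 5.07 in bovine cells and to between 6.87 and 7.17 with vehicle. The part of these markers in the bovine differences was not tested. In RNA from whole cultures, fewer cells of a type and less RNA per cell cannot be told apart.

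The first comparison asked what the PPARγ antagonist did to these genes in ovine cells, and limma called 0 of the 5 probe sets at an adjusted p of 0.05, whereas 3 had an unadjusted p below that value. Across all probe sets 0.183% were called, and 21.4% had such an unadjusted p. Among the 9017 with a mean of 5 or more on these arrays, as all 5 had, 0.399% were called. ACSL1 and the 3 ACSL3 probe sets gave positive log2 differences of 0.13 to 0.26, and ACSL5 gave -0.06, beside a median of -0.016 over all probe sets. The arrays also differed in a control measure: the 3′ minus 5′ difference, averaged over 6 control transcripts as a sign of RNA quality, was 0.956 ± 0.074 with GW9662 and 1.18 ± 0.085 with vehicle (SD, n = 5 each). No array of one group reached the other, and an exact permutation test, two-sided, gave its lowest possible p for this design, 0.00794. This measure was also fitted as a covariate, and it cannot be told apart from the treatment on these arrays.

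ACSL1 read 9.12, 9.09, 9.21, 9.18 and 9.18 with GW9662, against 8.97, 9.00, 9.05, 9.04 and 9.05 with vehicle. All 5 GW9662 arrays were above all 5 vehicle arrays, with a gap of 0.03 between the groups. The means were 9.16 ± 0.051 with GW9662 and 9.02 ± 0.038 with vehicle (SD, n = 5 each), a log2 difference of 0.13 (SE 0.028, 95% interval 0.07 to 0.20, adjusted p = 0.123), or 1.10-fold. Groups did not overlap in 14.6% of all probe sets (1.93% with GW9662 higher) and, in either direction, in 5.92% of those with a mean of 5 or more. Of all probe sets 0.762% had a smaller p than ACSL1. The difference was 0.08 after a second quantile normalisation, where the groups overlapped (adjusted p = 0.287).

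ACSL3 was read by 3 probe sets, of which Bt.17121.1.S1_at was the brightest in both fits. It read 7.36, 7.36, 7.15, 7.36 and 7.43 with GW9662, against 6.76, 7.04, 7.21, 7.22 and 7.14 with vehicle. Of the 5 GW9662 arrays 4 lay above every vehicle array, and replicate 3 lay among them. The log2 difference was 0.26 (SE 0.093, 95% interval 0.05 to 0.47, adjusted p = 0.217). Without vehicle replicate 1, the array with the lowest mean correlation to its own group (0.994, against 0.996 to 0.997 for the others of that group), it was 0.18 (adjusted p = 0.280). With the covariate for RNA quality it was -0.070 (adjusted p = 1.00), whereas the other two ACSL3 probe sets kept positive values with it.

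The other ACSL3 probe sets gave values of similar size. Bt.19850.1.S1_at read 6.35, 6.46, 6.64, 6.62 and 6.44 with GW9662, against 5.96, 6.40, 6.31, 6.32 and 6.31 with vehicle, so that 4 GW9662 arrays lay above every vehicle array (log2 difference 0.24, SE 0.091, adjusted p = 0.218). Without vehicle replicate 1 its difference was 0.17, and it was 0.16 both after the second quantile normalisation and with array weights. With the covariate it was 0.17. Bt.19850.2.S1_at read 7.10, 6.98, 7.29, 7.31 and 7.47 with GW9662, against 7.02, 6.86, 6.64, 7.33 and 7.25 with vehicle, and the groups overlapped widely (log2 difference 0.21, SE 0.15, 95% interval -0.12 to 0.54, adjusted p = 0.346). It was 0.12 without vehicle replicate 3 and 0.14 after the second quantile normalisation, but 0.55 with the covariate (adjusted p = 0.924). Over the 3 probe sets the mean per array lay between 6.93 and 7.11 with GW9662 and between 6.58 and 6.96 with vehicle, a log2 difference of 0.24 (adjusted p = 0.193 with each gene as the mean of its probe sets).

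ACSL5 read 9.35, 9.28, 9.36, 9.21 and 9.31 with GW9662, against 9.41, 9.37, 9.34, 9.30 and 9.39 with vehicle. The groups overlapped, with 2 GW9662 arrays below every vehicle array. The log2 difference was -0.06 (SE 0.032, 95% interval -0.13 to 0.01, adjusted p = 0.274). The value was -0.02 after centring the arrays on their medians, -0.11 after the second quantile normalisation, -0.04 without GW9662 replicate 4 and 0.0026 with the covariate.

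**Figure D1:**
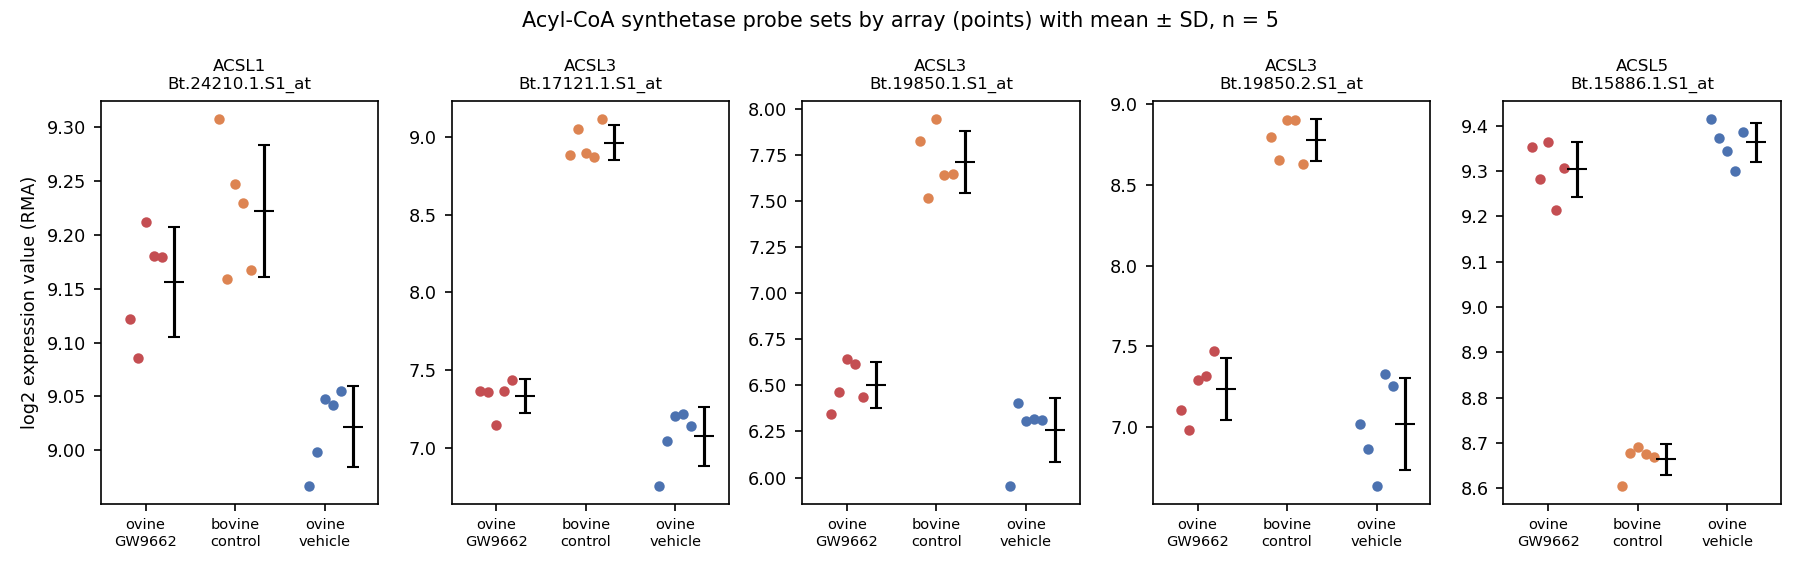
Log2 expression values of the 5 probe sets on each array (points), with the mean and SD of 5 arrays per group beside them: ovine GW9662, bovine control and ovine vehicle. The vertical scale differs between panels. The bovine arrays stand above both ovine groups in the 3 ACSL3 panels and below them for ACSL5, and for ACSL1 the GW9662 and bovine arrays overlap, both above vehicle.

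The second comparison set the bovine controls against the ovine vehicle controls. ACSL3 was higher in bovine cells on all 3 of its probe sets, by 1.45 to 1.89 on the log2 scale, ACSL1 was higher by 0.20, and ACSL5 was lower, with a log2 difference of -0.70. All 5 probe sets passed in limma and in each the groups did not overlap. That count is to be read against the whole table, where 45.2% of all probe sets passed (15.6% higher and 29.6% lower), and groups did not overlap in 53% of them (12.5% higher and 40.5% lower). Among the 9038 with a mean of 5 or more on these arrays, as all 5 had, 57.7% passed and groups did not overlap in 46.7%. After each array was centred on its own median, calls over all probe sets were 3740 higher and 2715 lower in place of 3740 and 7120, and after a second quantile normalisation 3224 and 3578. The 5 probe sets kept their directions and their calls in both. Species, label of the cells and the match of sheep RNA to bovine probes cannot be told apart in this comparison. The same holds for the DMSO vehicle, stated for the ovine cells only, and for the 3′ minus 5′ measure.

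For ACSL3, Bt.17121.1.S1_at read 8.88, 9.05, 8.90, 8.88 and 9.11 in bovine cells, against the vehicle values given above. The means were 8.97 ± 0.11 in bovine cells and 7.07 ± 0.19 with vehicle (SD, n = 5 each), a log2 difference of 1.89 (SE 0.093, 95% interval 1.68 to 2.10, adjusted p = 5.7e-07), or 3.71-fold. Among the 9038 brighter probe sets 1.38% had a larger difference in favour of bovine cells.

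Bt.19850.2.S1_at read 8.80, 8.66, 8.90, 8.90 and 8.63 in bovine cells and averaged 8.78 ± 0.13 there and 7.02 ± 0.28 with vehicle (log2 difference 1.76, SE 0.13, 3.38-fold, adjusted p = 9.6e-06). Bt.19850.1.S1_at read 7.82, 7.52, 7.94, 7.64 and 7.65 in bovine cells and averaged 7.71 ± 0.17 there and 6.26 ± 0.17 with vehicle (log2 difference 1.45, SE 0.10, 2.74-fold, adjusted p = 6.3e-06). In each of the 3 probe sets the lowest bovine array stood at least 1.11 above the highest vehicle array. The mean over the 3 lay between 8.41 and 8.58 in bovine cells and between 6.58 and 6.96 with vehicle. Within groups the 3 probe sets did not follow each other closely: over the 15 arrays, as deviations from their group means, they correlated at -0.09, 0.12 and 0.19, on arrays normalised together.

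ACSL5 went the other way. It read 8.61, 8.68, 8.69, 8.68 and 8.67 in bovine cells, against 9.41, 9.37, 9.34, 9.30 and 9.39 with vehicle, and the highest bovine array stood 0.61 below the lowest vehicle array. The means were 8.66 ± 0.033 in bovine cells and 9.36 ± 0.044 with vehicle, a log2 difference of -0.70 (SE 0.024, 95% interval -0.75 to -0.64, adjusted p = 5.5e-08), or 1.62-fold lower in bovine cells.

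ACSL1 differed least. It read 9.31, 9.16, 9.25, 9.23 and 9.17 in bovine cells, and every array lay above every vehicle array, with a gap of 0.10. The log2 difference was 0.20 (SE 0.031, 95% interval 0.13 to 0.27, 1.15-fold, adjusted p = 0.00112). Among probe sets with a mean of 5 or more, 61.5% differed by more. Its call did not hold when the 3′ minus 5′ measure was a covariate (0.18, adjusted p = 0.355), whereas those of ACSL5 (-0.61, adjusted p = 0.000792) and of the 3 ACSL3 probe sets did (1.31 for Bt.17121.1.S1_at, adjusted p = 0.00147, with 1.34 and 2.11 for the other two). That measure was 0.881 ± 0.043 in bovine arrays and 1.18 ± 0.085 in vehicle arrays, again without overlap. It cannot be told apart from the species here either, and the part of RNA quality in these differences was not tested.

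**Figure D2:**
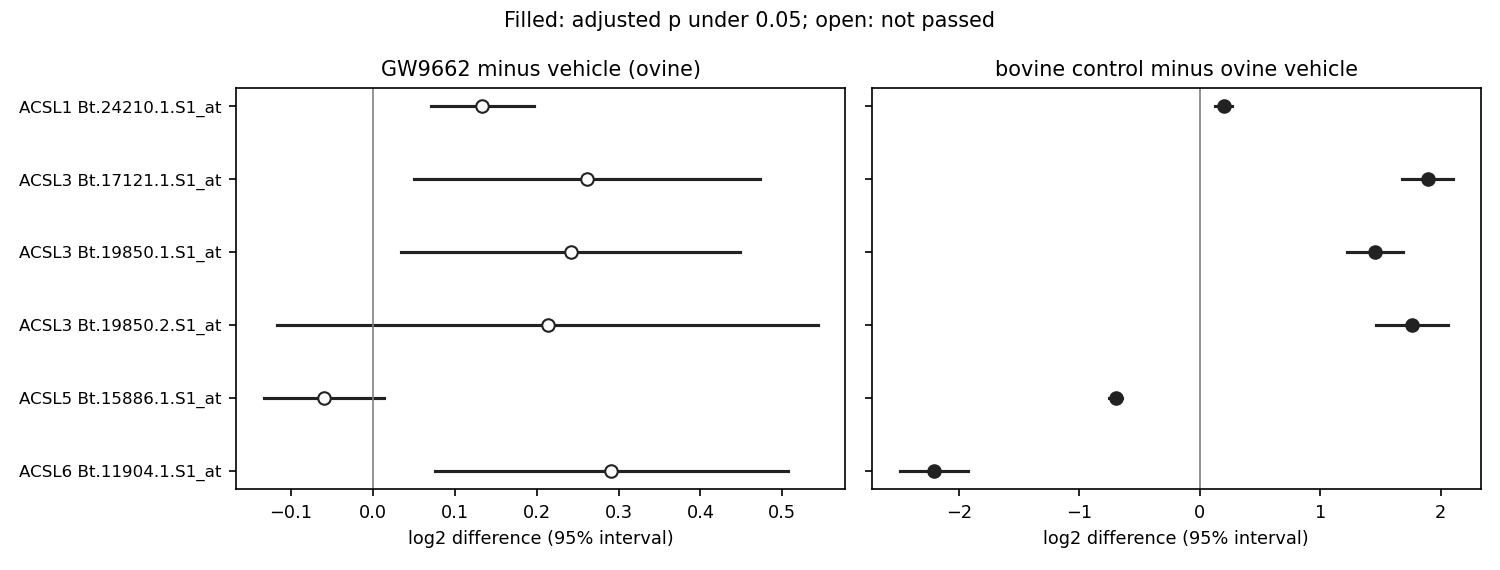
Log2 differences of the 5 probe sets and of ACSL6, with 95% intervals that are not adjusted for the number of probe sets, for GW9662 minus vehicle in ovine cells (left) and bovine control minus ovine vehicle (right). Filled points had an adjusted p under 0.05. No point on the left is filled although some intervals exclude 0, and all points on the right are filled, with ACSL3 positive and ACSL5 and ACSL6 negative.

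Set against the GW9662 arrays in place of vehicle, with the same bovine arrays and so not as separate evidence, the bovine values were higher for ACSL3 by 1.63, 1.21 and 1.55 (Bt.17121.1.S1_at, Bt.19850.1.S1_at and Bt.19850.2.S1_at, adjusted p of at most 6.9e-06) and lower for ACSL5 (-0.64, adjusted p = 3.4e-07). ACSL1 was at 0.07 (SE 0.034, 95% interval -0.01 to 0.14, adjusted p = 0.165). In this comparison 29.4% of all probe sets passed, and 60.2% of those with a mean of 5 or more. By mean level ACSL1 therefore ran bovine (9.22), GW9662 (9.16) and vehicle (9.02), where neither neighbouring pair passed and the outer pair did. ACSL3 ran in the same order on all 3 probe sets, with bovine cells apart from both ovine groups and no passing difference between these. ACSL5 ran vehicle (9.36), GW9662 (9.30) and bovine (8.66), with only the bovine group apart.

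**Figure D3:**
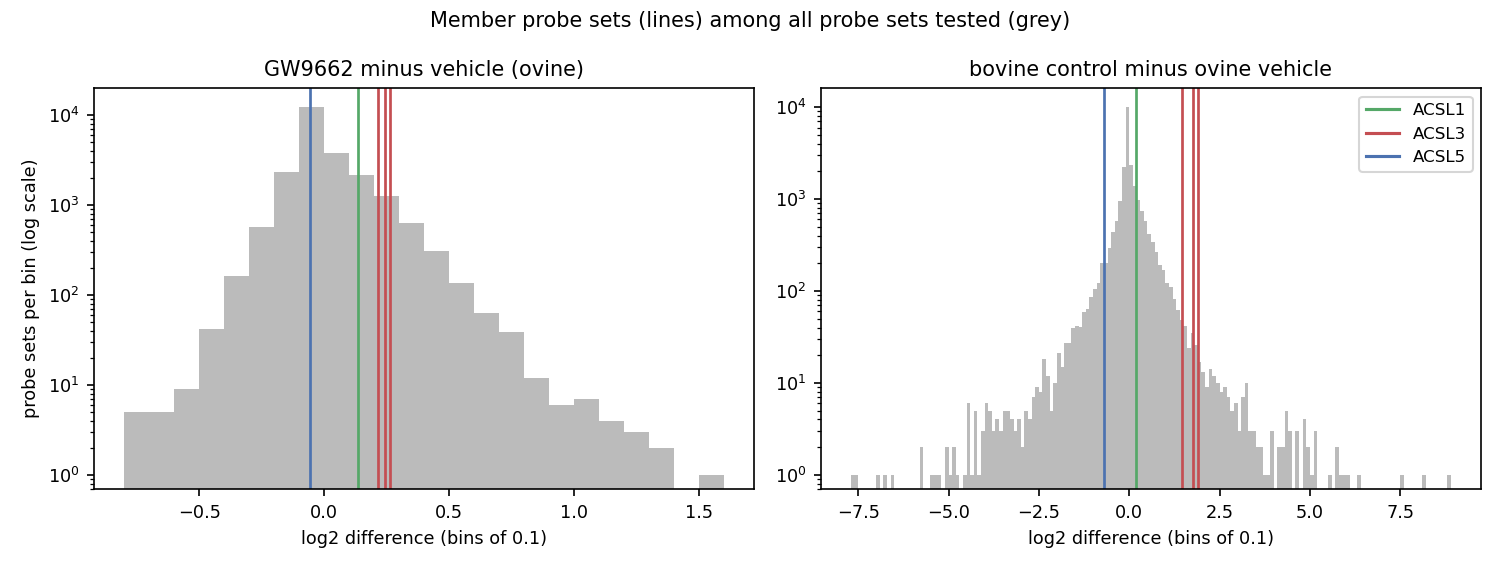
Number of probe sets per bin of 0.1 in log2 difference (grey, log scale) over all 24016 probe sets, with lines at the 5 probe sets of ACSL1 (green), ACSL3 (red) and ACSL5 (blue). With GW9662 (left) the ACSL5 and ACSL1 lines, at -0.06 and 0.13, lie nearer the centre. The ACSL3 lines, at 0.21 to 0.26, lie on the upper shoulder, where 87.8% to 91.8% of all probe sets had a smaller absolute difference. Among the 9017 probe sets with a mean of 5 or more that share was 79.0% to 86.2%. For bovine against ovine vehicle (right) the ACSL3 lines, at 1.45 to 1.89, lie in the upper tail.

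The genes whose profile over the 15 arrays was nearest to each member, by the root mean square difference of centred log2 values among 5100 named genes with a mean of 5 or more, were as follows. For ACSL1 they were YME1L1, a protease of the mitochondrial inner membrane (0.037), ZMYM5 (0.044) and the cell cycle kinase CDK2 (0.048), where the median gene was at 0.205. ACSL3 was nearest to LRIG3 (0.110), FDFT1, the squalene synthase of cholesterol synthesis (0.152), and the adaptor GAB1 (0.160), with a median of 0.834. ACSL5 was nearest to BCL2L14 (0.061), the iron-sulfur cluster scaffold ISCU (0.064) and UBE2H (0.066), with a median of 0.376. The arrays come from 2 species and were normalised together, and the measure takes in both the differences between groups and those within them.

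The genes around these enzymes were counted in 7 lists of 122 genes, of which 89 were measured, each by its brightest probe set. With GW9662 limma called 0 of the 89 on these probe sets. Another probe set of CAV1 passed as higher, where the brightest gave -0.06 (adjusted p = 0.393). Of the 89 genes, 24 (9 up and 15 down) had an unadjusted p below 0.05. That share, 27%, stands beside the 20.1% of 9155 named genes with such a p, of which 0.142% passed as higher and 0.0765% as lower. The median log2 difference was -0.014, and -0.015 over all named genes. Of the 15 down, FABP1, FABP2, FABP6, FABP7, LPL, ACOT4, ACADL, GPAT3, AGPAT4 and FADS2 had means under 3 in both groups. Such values cannot be told from no expression, so the larger count down and the share of 27% rest in part on dim probe sets. ACSL6, the synthetase of the same family best known from brain, read 7.20, 7.25, 7.11, 7.28 and 7.17 with GW9662, against 6.55, 6.99, 7.09, 6.90 and 7.01 with vehicle, so that the groups did not overlap (log2 difference 0.29, SE 0.095, adjusted p = 0.217). The gap was 0.02, and vehicle replicate 1 was the lowest array, as in 2 of the ACSL3 probe sets. SLC25A20, which carries acylcarnitines into mitochondria, gave 0.29 (adjusted p = 0.212) and SOAT1, which makes cholesterol esters from acyl-CoA, 0.14 (adjusted p = 0.217). CD36, the fatty acid receptor, had means of 3.82 in GW9662 arrays and 3.02, just above 3, in vehicle arrays (0.79, SE 0.24, adjusted p = 0.217). The peroxisomal thioesterase ACOT8 gave 0.23 (adjusted p = 0.217). GPAT4, a glycerol-phosphate acyltransferase, was at -0.23 (adjusted p = 0.207), the lipid peroxide reductase GPX4 at -0.12 (adjusted p = 0.218), the ferritin light chain FTL at 0.07 (adjusted p = 0.234) and the elongase ELOVL6 at 0.37 (adjusted p = 0.260). The same rule took FABP1, ACOT4, ACADL and FADS2, whose means were under 3 in both groups and whose differences were all negative, between -0.17 and -0.03.

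Between bovine and ovine vehicle cells 24 of the 89 genes were higher and 28 lower, and 37 were not called. The median was -0.013, against -0.022 over all named genes, of which 21.9% were higher and 27.3% lower. Of the 28 lower, 17 had means under 3 in both groups, where a value cannot be told from no expression. With centred arrays the counts were 25 higher and 10 lower, and after quantile normalisation 24 and 13. No gene turned from higher to lower or back.

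Of 13 other acyl-CoA synthetases 4 were higher and 5 lower, of which 2 had means under 3 in both groups. ACSL6 read 4.62, 4.38, 4.86, 4.87 and 4.77 in bovine cells, a log2 difference of -2.21 from vehicle (SE 0.13, adjusted p = 1.5e-06), the same direction as ACSL5 and the opposite of ACSL3. Among those higher in bovine cells were enzymes that activate short acids, the acetyl-CoA synthetases ACSS2 by 1.40 (bovine 9.35 ± 0.13, vehicle 7.95 ± 0.11, adjusted p = 8.4e-07) and ACSS1 by 2.55 (bovine 5.00 ± 0.78, vehicle 2.45 ± 0.095, adjusted p = 0.000353), and the acetoacetyl-CoA synthetase AACS by 1.14 (adjusted p = 4.9e-06). The ovine mean of ACSS1 lies under 3, where values carry no order, so that the size of its difference is uncertain. ACSF2 was lower (-0.86, adjusted p = 0.0491) with groups that overlapped, and its call was lost with centring. The fatty acid transport protein SLC27A6 had low means, 3.23 in bovine cells and 3.37 with vehicle, and was lower (-0.14, adjusted p = 0.0230). It also gave -0.14 with GW9662 (adjusted p = 0.217).

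**Figure D4:**
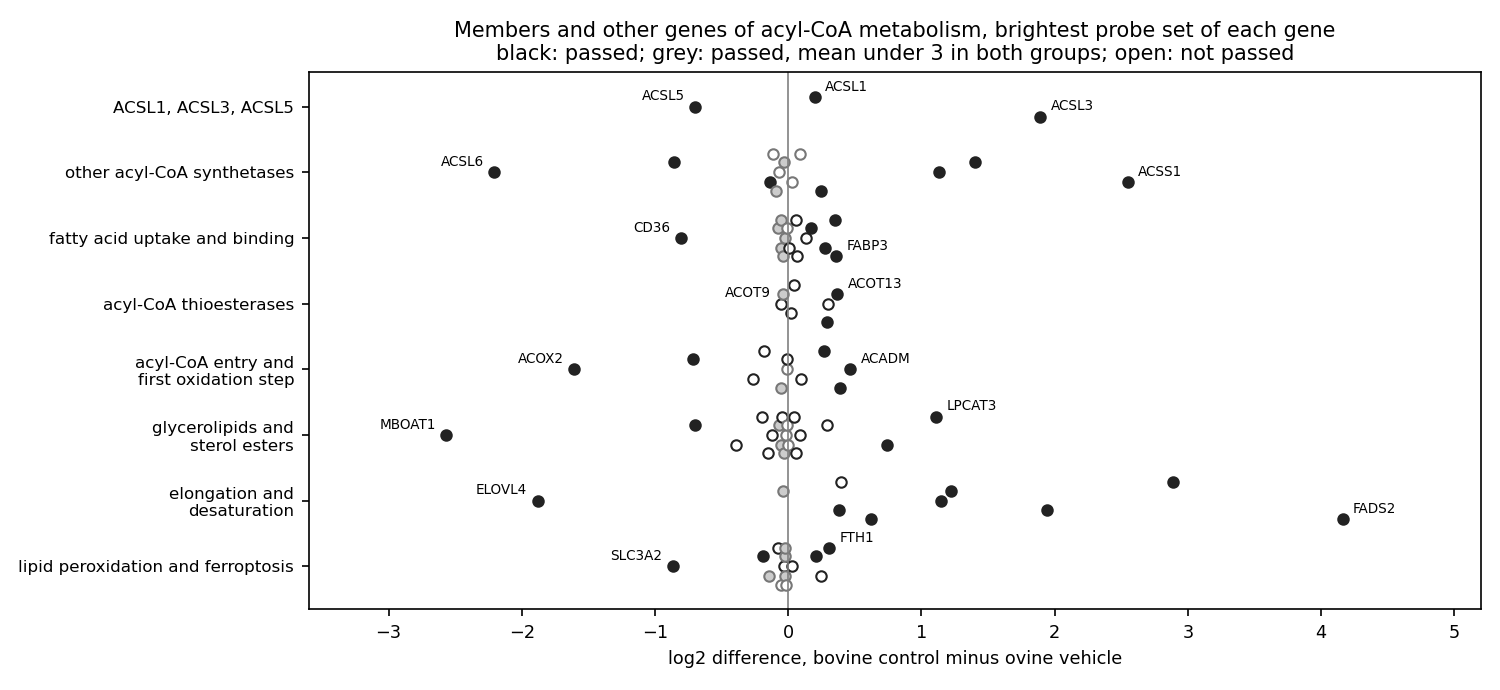
Log2 difference between bovine control and ovine vehicle for the 3 measured synthetases and for each measured gene of the 7 lists (1 point per gene, brightest probe set; vertical offsets within a row carry no value). Black points passed an adjusted p of 0.05, grey points passed with means under 3 in both groups, and open points did not pass. The row of elongation and desaturation genes lies mostly to the right of 0, and each of the other rows holds points on both sides.

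The genes that lengthen or desaturate acyl-CoA stood mostly on the bovine side, with 7 of 10 higher and 2 lower and a median of 0.88. Of the 2 lower, 1 had means under 3 in both groups. The desaturase SCD was higher by 2.89 (bovine 11.4 ± 0.072, vehicle 8.52 ± 0.15, adjusted p = 5.5e-09) and the elongase ELOVL6 by 1.95 (adjusted p = 3.1e-05). The desaturase FADS2 averaged 6.43 in bovine cells and 2.27 with vehicle (adjusted p = 9.5e-10), and since the ovine mean is under 3 the size of its difference is uncertain too. ELOVL4, the elongase of very long chains, was lower (-1.88, adjusted p = 1.2e-05). Of 19 genes that put acyl-CoA into glycerolipids and sterol esters 2 were higher and 5 lower, of which 3 had means under 3 in both groups. LPCAT3, the acyltransferase that places polyunsaturated acyl-CoA into phospholipids, was higher by 1.11 (bovine 6.79 ± 0.084, vehicle 5.68 ± 0.23, adjusted p = 3.6e-05). These values are of the LPCAT3 probe set that was brightest in this fit. In the GW9662 fit another LPCAT3 probe set was the brightest, with a vehicle mean of 5.97. Brighter with vehicle but dimmer over the arrays of this fit, that probe set had a smaller difference, whose size is not given here. AGPAT5 was higher by 0.74 (adjusted p = 0.0119). MBOAT1, another lysophospholipid acyltransferase, was lower (-2.57, adjusted p = 2.7e-06), as was SOAT1 (-0.70, adjusted p = 9.3e-07).

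Genes of oxidation went both ways. Of 11 genes listed under acyl-CoA entry and the first oxidation step 3 were higher and 3 lower. HADHA and HADHB, which the list also holds, act in later oxidation steps. The higher ones were the dehydrogenase ACADM by 0.46 (adjusted p = 0.00429), ACOX3 by 0.39 (adjusted p = 0.00653) and HADHB by 0.27 (adjusted p = 0.00413). The lower ones were the carrier SLC25A20 (-0.71, adjusted p = 0.000368), ACADL, under 3 in both groups, and the peroxisomal oxidase ACOX2. ACOX2 was at 2.53 in bovine cells, under 3, and at 4.14 with vehicle (adjusted p = 4.4e-05). Of 15 genes of fatty acid uptake and binding 4 were higher, led by the carrier FABP3 (0.36, adjusted p = 0.0123, not called after quantile normalisation), the acyl-CoA binding protein ACBD5 (0.35, adjusted p = 2.0e-05) and FABP5 (0.27, adjusted p = 0.000177). Of the 6 lower, 5 had means under 3 in both groups, and the sixth was CD36 (adjusted p = 0.0129). Its bovine mean was 2.22, under 3, and its vehicle mean was 3.02 ± 0.47, just above 3, so the size of its difference is uncertain. Of 7 thioesterases, which split acyl-CoA again, ACOT13 (0.37, adjusted p = 0.0130) and ACOT7 (0.29, adjusted p = 0.0332) were higher and 1, under 3 in both groups, was lower. Of 14 genes of lipid peroxidation and ferroptosis, the iron-dependent death for which ACSL4 is known, 2 were higher, the ferritin heavy chain FTH1 (0.31, adjusted p = 0.00124) and NCOA4, which delivers ferritin for breakdown (0.21, adjusted p = 0.00262). The cystine transporter chain SLC3A2 (-0.87, adjusted p = 0.000182) and FTL (-0.19, adjusted p = 0.000273) were lower, beside 4 genes with means under 3 in both groups.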

How the data were processed

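Total RNA of 15 samples was hybridised to Affymetrix bovine arrays, 1 array per sample. The deposited table gives 24128 probe sets on a log2 scale. The authors made these values with RMA (background correction, quantile normalisation, probe set summary), per the submitters' processing notes, where no version is stated. Signal over background is not recorded in the deposited values, and the number of arrays limits the precision. After removal of 112 control probe sets 24016 were tested, of which 13292 had 1 gene symbol in the platform annotation, 86 several and 10638 none. No 2 arrays held identical values.

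Groups follow the sample titles. Only the 10 arrays of a comparison entered its fit, made with limma 3.58.1 (lmFit, eBayes) under R 4.3.3. P-values were adjusted after Benjamini and Hochberg across all 24016 probe sets, 0.05 being the threshold, and all adjusted p-values come from limma. The brightest probe set over the arrays of a fit stood for a gene in the lists. The fits were also run on simulated data with independent noise and planted shifts. That simulation held no array or RNA quality effects, so nothing is drawn from it here. The rule for named genes took every member probe set, for GW9662 the 2 list genes of smallest p per list, and for the species up to 3 per list and direction of largest difference. Genes so chosen with means under 3 in both groups are given by count or by name, without values of their own. The members and lists were chosen with earlier results of these data known. Alternatives were other scalings, a filter on means under 3, other variance models, array weights, all 15 arrays in 1 fit, a replicate block, a 3′ minus 5′ covariate, other probe set summaries and leaving out each array.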

Additional observations from a re-analysis of the deposited data

Results flagged for a closer look

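In 4 of the 89 groups of 5 arrays examined, 1 array stood far from the others, its gap to the nearest being over 0.71 of the group's range. Chance flags about 1 in 20 groups. Among the 15 groups of the member probe sets 3 were so marked. For ACSL3, Bt.17121.1.S1_at read 7.15 on GW9662 replicate 3, where the next array was at 7.36. For ACSL3, Bt.19850.1.S1_at read 5.96 on vehicle replicate 1, where the next was at 6.31. For ACSL5, Bt.15886.1.S1_at read 8.61 on bovine replicate 1, where the next was at 8.67. The remaining one was ELOVL6, at 5.32 on GW9662 replicate 4, with the next at 4.80.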

How the results depend on the processing

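No member probe set passed for GW9662 under any alternative run (limma), and in the species comparison all passed under each, other than ACSL1 with the 3′ minus 5′ covariate (0.18, adjusted p = 0.355). With that covariate the GW9662 values of ACSL3 on Bt.17121.1.S1_at (-0.070) and of ACSL5 (0.0026) changed sign, and those of the other two ACSL3 probe sets did not (0.17 and 0.55). The covariate did not overlap between the groups, and the cause was not tested. Arrays of the same replicate number had correlations of deviations from -0.19 to 0.17 for GW9662 with vehicle. The labels do not say whether the numbers mark pairs, and these correlations cannot exclude it. With the replicate block 4 member probe sets had an unadjusted p under 0.05 for GW9662 (limma), beside 3205 of all 24016. With the replicate block ACSL1, ACSL3 (Bt.17121.1.S1_at) and ACSL5 had adjusted p of 0.107, 0.366 and 0.365 for GW9662, and 0.0164, 0.000172 and 0.000170 for the species. Leaving out each array gave 0.12 to 0.15 for ACSL1, 0.18 to 0.31 for ACSL3 (Bt.17121.1.S1_at, with 0.17 to 0.28 for Bt.19850.1.S1_at and 0.12 to 0.29 for Bt.19850.2.S1_at) and -0.08 to -0.04 for ACSL5 with GW9662. For the species the ranges were 0.18 to 0.22 for ACSL1, 1.81 to 1.93 for ACSL3 (Bt.17121.1.S1_at) and -0.72 to -0.69 for ACSL5.

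Over all probe sets, GW9662 gave 44 calls (79.5% higher). They were 67 with centring (91% higher), 62 after quantile normalisation (61.3% higher), 76 without probe sets of a mean under 3, 26 with trended and robust variance, 65 with array weights, 237 with all 15 arrays in 1 fit, 0 with the replicate block (3205 at an unadjusted p under 0.05), 0 with the covariate (1312 so) and 9 to 62 without single arrays. The species comparison gave 10860, and 13336 with all 15 arrays in 1 fit, 13157 with trended and robust variance, 11342 with array weights, 6455 with centring, 6802 after quantile normalisation, 6586 without dim probe sets, 5396 with the block, 1601 with the covariate, 4020 with 1 probe set per gene, 4127 with gene means, and 7335 to 10858 without single arrays. Without a record of signal over background, values under 3 carry no order.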
